A study of Mus musculus with 16 samples.

Results

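The Bcl2 family decides whether a cell opens the outer membrane of its mitochondria and dies by apoptosis. Probe sets were taken by gene symbol for 10 members, and 9 of them had at least 1, with 29 probe sets in all, out of 18193 genes measured on the arrays. The RNA level of the tenth, the effector Bax, is not analysed here. The arrays held RNA of whole cerebellum and whole lung from C57BL/6J mice at postnatal day 7, in 4 groups of 4 arrays each, namely cerebellum with vehicle, cerebellum with dexamethasone, lung with vehicle and lung with dexamethasone. The series title calls the treatment chronic, and its dose and timing are not stated there or in the labels. The replicates are described as biological, and whether they share litters or were pooled is not stated, so the p-values cover only the variation among these samples. Single arrays are called by the names in their labels, such as B28.

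Family members fall into 3 roles. Guardians (Bcl2, Bcl2l1, which encodes Bcl-xL, and Mcl1) hold the effectors in check. The effectors (Bax and Bak1) form pores in the mitochondrial outer membrane. BH3-only proteins (Bid, Bcl2l11, Bbc3, Bad and Pmaip1) carry death signals to the guardians, and some of them also to the effectors. Dexamethasone is a manufactured ligand of the glucocorticoid receptor, and such steroids are known to kill lymphocytes through BH3-only proteins such as the product of Bcl2l11. In the neonatal lung glucocorticoids are known for slowing cell division and thinning the airspace walls. In the neonatal cerebellum they are known for harming dividing granule neuron progenitors.

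The promoters of the members were read first, because glucocorticoids can reach these genes through the receptor or through other factors. RefSeq windows of 250 bases before each gene start (assembly GRCm38.p6) were searched for 9 members, with 15 windows in all. These 9 include Bax and leave out Pmaip1, whose promoter is not analysed here. Motifs were searched on both strands. The full glucocorticoid response element is AGAACA and its reverse complement spaced by any 3 bases. It was in 0 of the 15 windows and in 0.00913% of 32851 windows over all genes. With only 3 of all these windows holding it, 0 of 15 cannot tell the members from other genes. The single arm AGAACA, which the full element contains, was in 0 of 15 windows and in 16.1% of all. The FOXO motif GTAAACA was in 2 of 15 windows and in 3.17% of all. It was found in 1 window of Bcl2l11 at chr2:128125788-128126037 and in 1 window of Bbc3 at chr7:16310011-16310260, both on the plus strand of the genome. The match in Bbc3 reads TGTTTAC, its reverse complement. Both windows are shown because both genes are BH3-only members with known FOXO control. Capitals mark the FOXO motif, whose first base lies 227 bases before the start in Bcl2l11 and 167 bases before it in Bbc3.
Bcl2l11: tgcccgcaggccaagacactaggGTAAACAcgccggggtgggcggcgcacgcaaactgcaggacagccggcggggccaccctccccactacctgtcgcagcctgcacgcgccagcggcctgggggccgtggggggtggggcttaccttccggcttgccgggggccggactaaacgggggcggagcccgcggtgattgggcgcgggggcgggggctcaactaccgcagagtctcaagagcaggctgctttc
Bbc3: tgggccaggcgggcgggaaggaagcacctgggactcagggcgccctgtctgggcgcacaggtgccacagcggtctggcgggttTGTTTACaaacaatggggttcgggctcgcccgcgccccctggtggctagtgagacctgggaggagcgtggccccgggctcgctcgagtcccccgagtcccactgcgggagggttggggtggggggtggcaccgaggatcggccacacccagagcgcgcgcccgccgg
The GC-rich SP1 or KLF motif GGGCGG was in 10 of 15 windows and in 32.7% of all, and the TATA motif TATAAA in 0 of 15 and in 12.4% of all. A match is a run of letters and not a measured binding site. These arrays did not measure binding.

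The levels of the members by group were on a log2 scale made with RMA, on which a step of 1 is a doubling. Levels are compared only within a probe set. Each gene was represented by its brightest probe set, and a change was called where limma's test, fitted over all genes and 16 arrays, gave an adjusted p under 0.05.

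In the lung, limma called a change with dexamethasone in 6 of the 9 members, against 31.2% of all genes. Bcl2l1, Mcl1, Bid and Bbc3 rose, 4 of 9 beside 15.7% of all genes called higher. Bcl2 and Bcl2l11 fell, 2 of 9 beside 15.5% called lower, Bcl2l11 on only 1 of its 5 probe sets. Bad, Bak1 and Pmaip1 were not called. The members' median change was 0.43 on the log2 scale, beside 0.05 over all genes, and their median size was 0.50, beside 0.21. In 7 of the 9 members the lung groups did not overlap, beside 30.6% of all genes. In the cerebellum 0 of the 9 members were called by limma, against 4.80% of all genes, and 0 had an unadjusted p under 0.05. The median change there was -0.11, beside 0.01 over all genes. In the cerebellum the groups of 1 of the 9 members, Pmaip1, did not overlap, beside 12.6% of all genes.

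**Figure D1:**
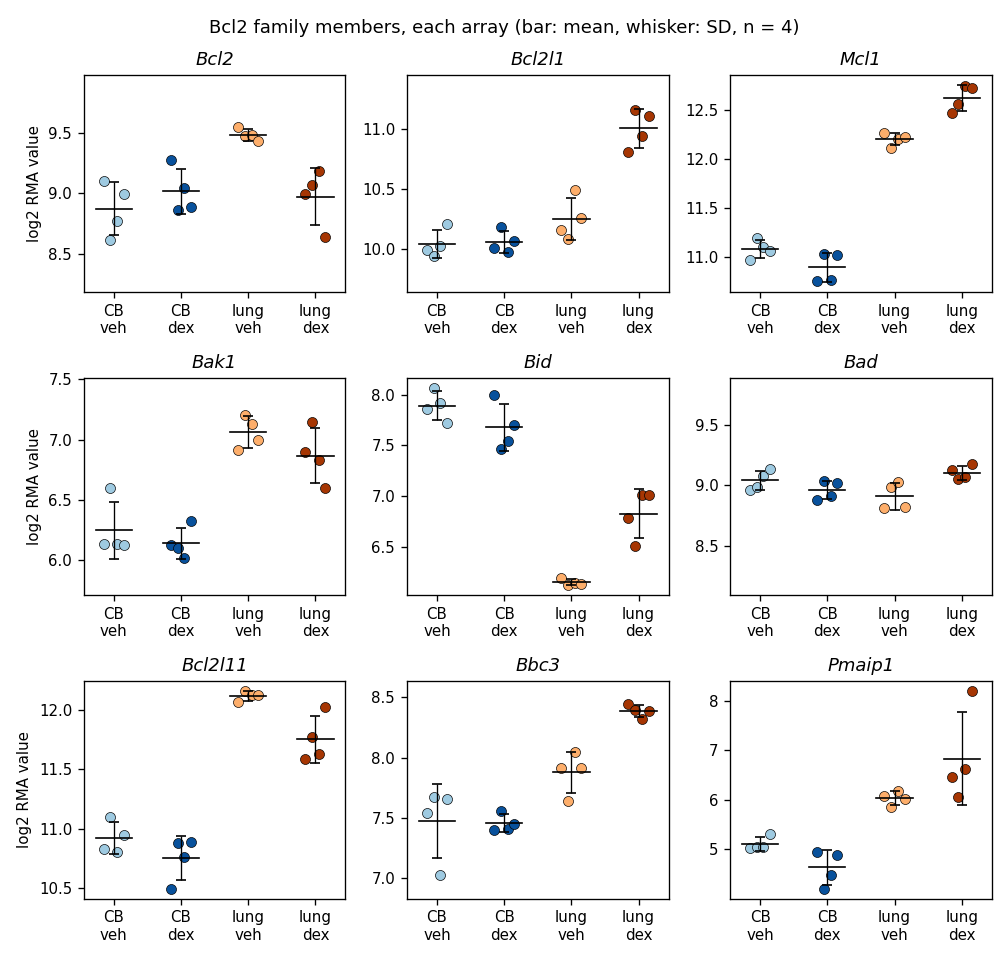
Log2 RMA value of each member on every array in the 4 groups (CB, cerebellum; veh, vehicle; dex, dexamethasone), with points for arrays, bars for means and whiskers for SD (n = 4); the vertical axes differ between panels. In Bcl2l1, Mcl1 and Bbc3 the lung dexamethasone arrays lie above all other arrays, and in Bid the lung vehicle arrays lie below all others.

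RNA quality and cell type markers moved with the lung groups, and Xist, an RNA of female cells, was spread unevenly over them. Xist read 5.5, 11.9, 6.1 and 6.9 on lung vehicle arrays and 10.8, 10.8, 5.7 and 10.9 on lung dexamethasone arrays. In cerebellum it read 5.0, 5.5, 5.8 and 11.4 with vehicle and 5.5, 11.4, 11.3 and 5.85 with dexamethasone. The labels do not state sex. With Xist as a covariate all 6 lung calls of the members were kept. The log2 difference between the 3′ and 5′ probe sets of the Gapdh control ran from 0.84 to 1.04 on lung vehicle arrays and from 0.45 to 0.71 on lung dexamethasone arrays, without overlap. In cerebellum it ran from 0.04 to 0.52 and from 0.05 to 0.18. With this measure as a covariate all 6 lung calls kept their direction and Bcl2l1 alone kept its call, at 1.0 ± 0.16 (SE, limma adjusted p = 0.00124). Under it Bcl2 was at -0.40 ± 0.22 (SE, adjusted p = 0.307), Mcl1 at 0.42 ± 0.16 (0.124), Bid at 0.42 ± 0.20 (0.23), Bcl2l11 at -0.31 ± 0.19 (0.361) and Bbc3 at 0.59 ± 0.215 (0.0995). In that order the SEs without it were 0.13, 0.09, 0.13, 0.11 and 0.13, so the fit with it was less precise. A lost call there can come from the larger SE as well as from a smaller change.

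Tissue markers matched the labels, in that all 5 neuronal markers were lower in lung than in cerebellum and all 6 lung epithelium markers higher. The counts below are of markers called, beside 31.2% of all genes called in lung (15.7% higher, 15.5% lower) and 4.80% in cerebellum. Lung counts of 2 of 6 and 1 of 3 lie near the 31.2%. Each summed level adds the markers on the linear scale before the log2 is taken, so the brightest markers weigh most in it. Neutrophil markers rose in treated lung, 5 of 5, with a summed level of 13.21 to 13.70 with vehicle and 14.76 to 15.17 with dexamethasone on the log2 scale. Lymphocyte markers fell, 3 of 7, from 9.74 to 10.04 down to 8.76 to 9.17, and macrophage markers were called higher for 3 of 5 and lower for 1, from 12.07 to 12.31 up to 12.49 to 13.38. Markers of proliferating cells fell, 5 of 5, from 12.29 to 12.70 down to 9.64 to 10.59. Fibroblast markers fell for 3 of 5, from 15.13 to 15.31 down to 14.04 to 14.47, and endothelial markers for 3 of 5, from 13.38 to 13.56 down to 12.79 to 13.17. Of the lung epithelium markers 2 of 6 rose, Sftpb and Epcam, with sums from 16.05 to 16.17 up to 16.29 to 16.45, and of the erythroid markers 1 of 3, Alas2, with sums from 12.02 to 12.97 up to 13.03 to 13.70. None of these lung sums overlapped between the groups. In RNA of whole organs fewer cells of a type and less RNA per cell cannot be told apart, and the part of these markers in the members' changes was not tested. In cerebellum 0 of 5 neuronal and 0 of 4 granule neuron progenitor markers were called by limma, 0 of them with an unadjusted p under 0.05, and 3 of 5 endothelial markers fell, with sums from 10.83 to 11.17 down to 10.09 to 10.27. There 2 of 5 fibroblast markers also fell (Col1a1 and Col3a1), as did 2 of 5 macrophage and microglia markers (Tyrobp and Cd68) and 2 of 5 neutrophil markers (S100a8 and S100a9). The fibroblast sums went from 12.90 to 13.27 down to 12.41 to 12.55 and the macrophage sums from 11.32 to 11.47 down to 10.78 to 11.25, while the neutrophil sums overlapped.

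Among the guardians, Bcl2 fell in the lung. Its level on the lung vehicle arrays was 9.55, 9.47, 9.49 and 9.43, and on the lung dexamethasone arrays 9.00, 9.07, 9.18 and 8.63. Every treated lung lay below every vehicle lung. The log2 change was -0.51 ± 0.13 (SE, n = 4 per group, limma adjusted p = 0.00623), or 1.43-fold lower. All 5 Bcl2 probe sets were called lower in the lung, with changes from -1.39 to -0.42. In the most changed of these, which was dimmer, the vehicle arrays read 6.10, 6.28, 5.80 and 5.94 and the dexamethasone arrays 4.67, 5.05, 4.62 and 4.20. In the cerebellum, Bcl2 read 9.10, 8.61, 8.77 and 9.00 with vehicle and 9.27, 8.86, 9.04 and 8.89 with dexamethasone, and the groups overlapped. The change was 0.14, with a 95% interval from -0.13 to 0.42.

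Bcl2l1, the gene of the guardian Bcl-xL, moved the other way in the lung. Its level was 10.16, 10.09, 10.49 and 10.26 on the vehicle arrays and 10.81, 11.16, 10.94 and 11.11 on the dexamethasone arrays, without overlap. The log2 change was 0.75 ± 0.10 (SE, limma adjusted p = 3.99e-05), or 1.68-fold higher. Of its 4 probe sets 3 were called higher. The most changed of these read 7.53, 7.54, 8.14 and 7.88 with vehicle and 8.90, 9.02, 8.98 and 8.96 with dexamethasone, a change of 1.20. The fourth was dim, with means of 4.22 and 4.43, and was not called. In the cerebellum Bcl2l1 read 10.00, 9.95, 10.03 and 10.21 with vehicle and 10.01, 10.18, 9.98 and 10.07 with dexamethasone. The change there was 0.02, with a 95% interval from -0.21 to 0.24.

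Mcl1 encodes a short-lived guardian that is held in check mostly by rapid turnover of the protein, which arrays do not measure. Its level in the lung was 12.26, 12.12, 12.21 and 12.23 with vehicle and 12.48, 12.56, 12.75 and 12.73 with dexamethasone, without overlap. The log2 change was 0.43 ± 0.09 (SE, limma adjusted p = 0.00225), or 1.34-fold higher. All 6 Mcl1 probe sets were called higher, with changes from 0.38 to 0.90. In the cerebellum the values were 10.97, 11.20, 11.10 and 11.06 with vehicle and 10.76, 11.03, 10.77 and 11.02 with dexamethasone. These groups overlapped, with a change of -0.19 and a 95% interval from -0.39 to 0.01.

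**Figure D2:**
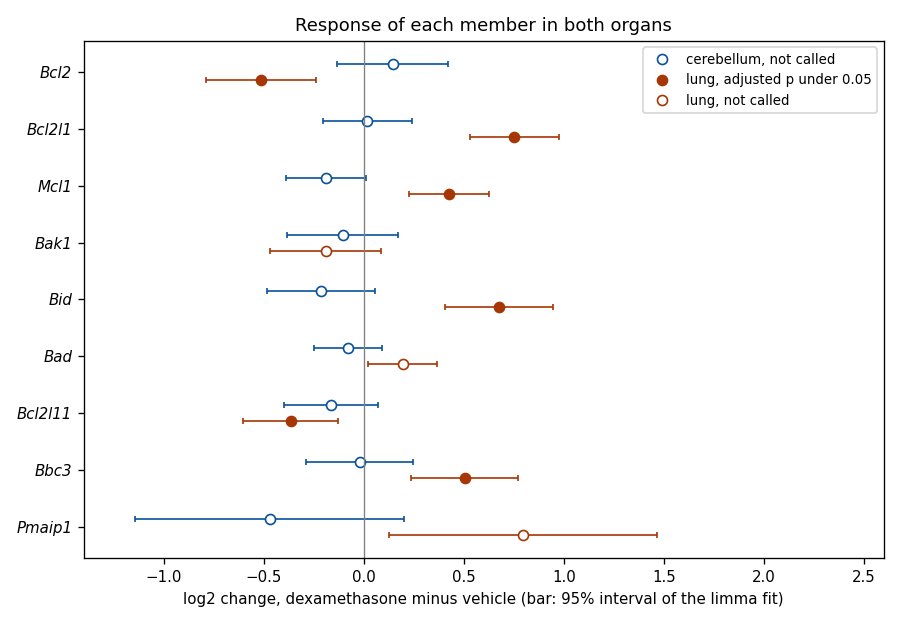
Log2 change of each member with dexamethasone in cerebellum and lung, with bars for the 95% interval of the limma fit and filled points where the adjusted p was under 0.05. The filled points are all in lung, with Bcl2l1, Mcl1, Bid and Bbc3 to the right of 0 and Bcl2 and Bcl2l11 to the left.

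Bak1, the measured effector, was not called in either organ. The lung values were 6.91, 7.21, 7.13 and 6.99 with vehicle and 6.90, 7.15, 6.83 and 6.60 with dexamethasone. The groups overlapped, and the change was -0.19, with a 95% interval from -0.47 to 0.08. The 2 Bak1 probe sets differed. The dimmer one was called higher in the lung by 0.35 (limma adjusted p = 0.0283 over probe sets), from 4.89, 4.79, 4.94 and 4.83 to 5.15, 5.38, 4.93 and 5.41, and its groups overlapped. In the cerebellum Bak1 read 6.13, 6.60, 6.13 and 6.13 with vehicle and 6.13, 6.10, 6.02 and 6.32 with dexamethasone, a change of -0.11 with a 95% interval from -0.38 to 0.17.

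Of the BH3-only genes, Bid changed most in the lung among those called. Its product is cut by caspase 8 and links death receptors to mitochondria. Bid read 6.20, 6.12, 6.15 and 6.14 on lung vehicle arrays and 6.79, 6.51, 7.01 and 7.02 on lung dexamethasone arrays, without overlap. The log2 change was 0.68 ± 0.13 (SE, limma adjusted p = 0.000619), or 1.60-fold higher. Of its 3 probe sets 2 were called higher, and the third was dim, at means of 4.03 and 4.22. In the cerebellum Bid read 7.86, 8.07, 7.92 and 7.72 with vehicle and 7.99, 7.47, 7.55 and 7.70 with dexamethasone, and overlapped. The change was -0.21, with a 95% interval from -0.48 to 0.05.

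Bbc3, which encodes PUMA, a BH3-only protein known as a p53 target, rose in the lung. The vehicle arrays read 7.92, 7.64, 8.05 and 7.91 and the dexamethasone arrays 8.44, 8.39, 8.32 and 8.39. All 4 treated lungs lay above all 4 vehicle lungs. The log2 change was 0.50 ± 0.13 (SE, limma adjusted p = 0.00577), or 1.42-fold higher, from 1 probe set. In the cerebellum Bbc3 read 7.54, 7.68, 7.02 and 7.66 with vehicle and 7.40, 7.56, 7.41 and 7.45 with dexamethasone. The groups overlapped, with a change of -0.02 and a 95% interval from -0.29 to 0.25.

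Bcl2l11, which encodes the activator BIM, fell in the lung on its brightest probe set. The values were 12.07, 12.16, 12.13 and 12.13 with vehicle and 11.59, 11.78, 11.63 and 12.02 with dexamethasone, without overlap. The log2 change was -0.37 ± 0.11 (SE, limma adjusted p = 0.0187), or 1.29-fold lower. The call was not shared by the other 4 probe sets of Bcl2l11, whose changes ran from -0.06 to 0.46. The mean of the 5 probe sets changed by 0.03 (limma adjusted p = 0.888). The call was also lost without dexamethasone array B28 (-0.31, adjusted p = 0.0617) or B40 (-0.32, adjusted p = 0.0544), and over all 25 other settings the adjusted p ranged from 0.00236 to 0.888. In the cerebellum Bcl2l11 read 10.83, 11.10, 10.80 and 10.95 with vehicle and 10.50, 10.88, 10.76 and 10.89 with dexamethasone, which overlapped. The change was -0.16, with a 95% interval from -0.40 to 0.07.

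Bad and Pmaip1, which encodes NOXA, were not called in the lung. Both products act mainly by binding guardians, NOXA chiefly Mcl1. Bad read 8.81, 8.99, 9.03 and 8.82 with vehicle and 9.12, 9.05, 9.07 and 9.18 with dexamethasone, without overlap. Its change was 0.19, with a 95% interval from 0.02 to 0.36 (limma adjusted p = 0.0798). Pmaip1 read 6.08, 5.85, 6.19 and 6.02 with vehicle and 6.45, 6.05, 6.63 and 8.19 with dexamethasone. The value of 8.19 came from array B46, and the groups overlapped. The change was 0.80, with a 95% interval from 0.12 to 1.47 (limma adjusted p = 0.0683). It was 0.34 without B46 (adjusted p = 0.16), and it was called without B31, at 1.06 (adjusted p = 0.0157).

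In the cerebellum Pmaip1 was the member with the largest change by size. It read 5.03, 5.04, 5.06 and 5.31 with vehicle and 4.96, 4.21, 4.49 and 4.90 with dexamethasone, without overlap. The change was -0.47, with a 95% interval from -1.14 to 0.20 (limma adjusted p = 0.53). Bad read 8.96, 8.99, 9.08 and 9.13 with vehicle and 8.88, 9.03, 8.91 and 9.02 with dexamethasone, a change of -0.08 with a 95% interval from -0.25 to 0.09.

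Over the 29 probe sets of the members, 19 were called in the lung, beside 24.0% of all probe sets. Of these 13 were higher, beside 10.7% of all probe sets, and 6 were lower, beside 13.3%. In the cerebellum limma called 0 of 29, beside 3.23% of all, and 2 had an unadjusted p under 0.05. The difference between the organs' responses was called for 10 of 29, beside 14.3% of all probe sets. No member had lung calls in both directions. The lower calls were those of Bcl2 and of 1 Bcl2l11 probe set, and the higher calls came from Mcl1, Bcl2l1, Bid, Bak1 and Bbc3.

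**Figure D3:**
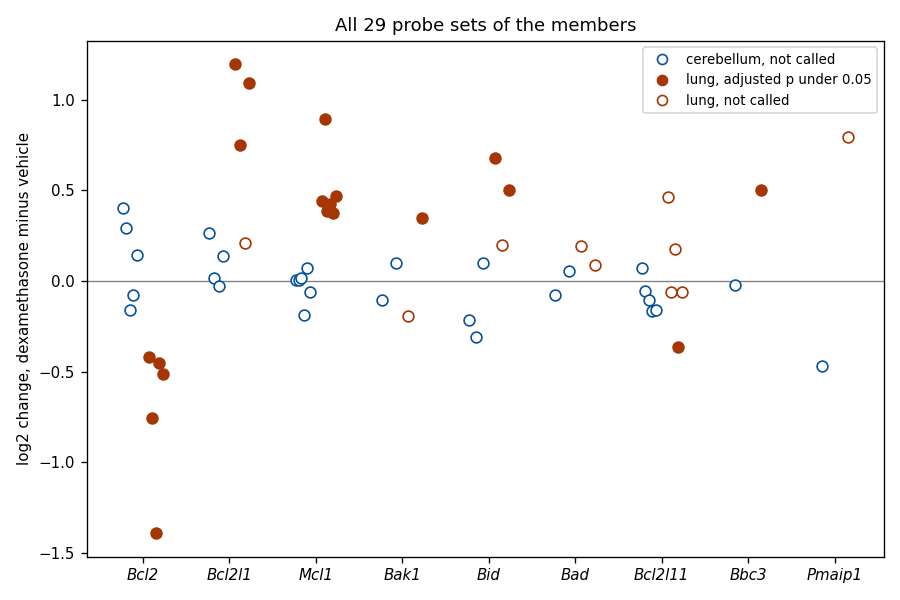
Log2 change with dexamethasone of each of the 29 probe sets by gene in cerebellum and lung, filled where the adjusted p over probe sets was under 0.05. The lung changes of Bcl2 run from -1.39 to -0.42 and those of Mcl1 from 0.38 to 0.90, while those of Bcl2l11 lie on both sides of 0.

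The difference between the organs was tested as the lung change minus the cerebellum change. It was called for 5 of the 9 members, against 21.3% of all genes, with 4 positive, beside 9.85%, and 1 negative, beside 11.5%. With the Gapdh covariate 3 of the 5 calls remained, those of Bcl2l1, Mcl1 and Bid. The difference was positive for Bid (0.89 ± 0.18 SE, limma adjusted p = 0.00202), Bcl2l1 (0.74 ± 0.15, adjusted p = 0.002), Mcl1 (0.61 ± 0.13, adjusted p = 0.00333) and Bbc3 (0.52 ± 0.18, adjusted p = 0.0467). It was negative for Bcl2 (-0.66 ± 0.18, adjusted p = 0.0175). The difference for Bbc3 lost its call in 18 of 24 other settings, with an adjusted p of up to 0.109, including every omission of 1 array except B80 of cerebellum vehicle and B19 of lung vehicle. For Bcl2l11 the difference was -0.20 (adjusted p = 0.415), for Bad 0.27 (adjusted p = 0.102) and for Bak1 -0.09 (adjusted p = 0.801). For Pmaip1 it was 1.27 (adjusted p = 0.0547), and it was called without lung dexamethasone array B28 (1.39, adjusted p = 0.048), B31 (1.53, adjusted p = 0.016) or B46 (0.81, adjusted p = 0.021).

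With vehicle, 7 of the 9 members differed between lung and cerebellum, against 57.7% of all genes, and 3, namely Mcl1, Bcl2l11 and Bid, with the Gapdh covariate. Mcl1 was 2.18-fold higher in lung (log2 1.12, limma adjusted p = 1.34e-08) and Bcl2l11 2.30-fold higher (1.20, adjusted p = 5.19e-08). Bcl2, Bak1, Pmaip1 and Bbc3 were also higher in lung, by 0.61, 0.81, 0.92 and 0.40 on the log2 scale. The dimmer Bak1 probe set was not called, at 0.0035 (adjusted p = 0.985 over probe sets). Bid was the member lower in lung, 3.34-fold (log2 -1.74, adjusted p = 2.26e-09). The Bbc3 value was 0.25 (adjusted p = 0.0361) without cerebellum vehicle array B80. The called differences had no overlap between organs except for Bbc3, and 6 of 9 members had none, beside 56.4% of all genes. Bcl2l1 (0.21, adjusted p = 0.106) and Bad (-0.13, adjusted p = 0.188) were not called.

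With dexamethasone, 7 of the 9 members differed between the organs, against 64.6% of all genes. In 8 of 9 the organs did not overlap, beside 58.7% of all genes. Bcl2l1 was 1.92-fold higher in treated lung than in treated cerebellum (log2 0.94, limma adjusted p = 4.25e-07), and Mcl1 was 3.33-fold higher (1.74, adjusted p = 3.17e-11). Bcl2 was not called, at -0.04 (adjusted p = 0.785). Bid remained lower in lung, 1.80-fold (log2 -0.85, adjusted p = 1.46e-05). Pmaip1 was 4.56-fold higher in lung (2.19, adjusted p = 1e-05), Bbc3 1.90-fold (0.93), Bcl2l11 2.0-fold (1.0) and Bak1 higher by 0.73 on the log2 scale. The Pmaip1 difference took in the lung value of 8.19 on array B46 and a dim treated cerebellum, at a mean of 4.64. Over 25 other settings it ran from 1.74 to 2.45 (adjusted p up to 0.00221). The dimmer Bak1 probe set was not called, at 0.26 (adjusted p = 0.0617 over probe sets).

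The order of the 4 groups differed among members. By mean, Bcl2l1, Mcl1, Bad, Bbc3 and Pmaip1 were highest in treated lung, and Bcl2, Bak1 and Bcl2l11 were highest in vehicle lung. Bid was highest in vehicle cerebellum, and both Bid and Bad were lowest in vehicle lung. Neighbouring groups in that order overlapped throughout for Bak1 and Bad. For Bcl2, Bcl2l1 and Bbc3 only the highest group stood apart from the next.

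Genes around the family were counted in 6 lists, to be read against medians over all genes of 0.05 in lung and 0.01 in cerebellum and against the 31.2% of all genes called in lung (15.7% higher, 15.5% lower) and 4.80% in cerebellum. The lung counts of 3 of 8, 3 of 9, 3 of 10 and 5 of 13 called lie near that share. With the Gapdh covariate the lung calls came down from 5 to 2 among apoptosome and caspase genes and from 3 to 0 among both death receptors and mitochondrial partners. The share of all genes called with it is not given, so these drops cannot be read as particular to the lists. Among the genes named from these lists, the covariate ended the lung calls of Aifm1, Apaf1, Bcl2l13, Ddit3, Fas, Foxo1, Naip2, Tnfrsf21, Tnfsf10, Vdac1, Vdac3 and Ywhaq (adjusted p from 0.0567 to 0.903), with every direction kept. Among 13 other relatives of Bcl2, 2 rose and 3 fell in the lung and 1 rose and 2 fell in the cerebellum, with medians of 0.15 and 0.03. In the lung Bnip3, a mitophagy receptor that answers to low oxygen, rose by 1.30 (limma adjusted p = 5.32e-05). Bok, an effector-like relative, fell by 1.0 there (adjusted p = 5.03e-05) and by 0.55 in the cerebellum (adjusted p = 0.0338). The cerebellar Bok call was lost in 8 of 25 other settings, among them the omission of B39, B49, B50, B52, B79 or B80, with an adjusted p of up to 0.117. Bcl2l12 fell in the lung by 0.65 (adjusted p = 0.00592), and it changed by -0.18 (adjusted p = 0.162) on the mean of its probe sets. Bcl2l13, another mitophagy receptor, fell by 0.35 on its brightest probe set (adjusted p = 0.00983) and its other probe set was called higher, by 0.44.

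Bmf, a BH3-only gene whose product is held at the cytoskeleton, was not among the 10 members, and it fell in the cerebellum by 0.74 ± 0.14 (SE, limma adjusted p = 0.00422), or 1.67-fold. That call came from 1 of its 3 probe sets, whose changes ran from -0.74 to 0.02, and the mean of the probe sets changed by -0.25 (adjusted p = 0.117). In the lung its change was 0.27 (adjusted p = 0.141), and the lung change exceeded the cerebellum change by 1.02 (adjusted p = 0.00121). Bcl2l2, the guardian Bcl-w, was higher in the cerebellum by 0.41 (adjusted p = 0.0453), a call lost in 18 of 25 other settings, among them the omission of any array but B78, B81, B31 or B46, with an adjusted p of up to 0.412.

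Downstream of the mitochondria, 12 apoptosome and caspase genes gave 2 higher and 3 lower calls in the lung and 1 lower call in the cerebellum, with a median of -0.06 in both. In the lung Endog, a mitochondrial nuclease, rose by 0.62 (limma adjusted p = 0.000207). Apaf1, the scaffold of the apoptosome, fell by 0.37 (adjusted p = 0.00706) on its brightest probe set and changed by -0.04 (adjusted p = 0.798) on the mean of its probe sets. Aifm1, a mitochondrial flavoprotein, rose by 0.32 (adjusted p = 0.0269), a call lost without lung dexamethasone array B28 (adjusted p = 0.0908) or vehicle arrays B14 (0.0766) and B19 (0.0898). Casp6, an executioner caspase, fell by 0.36 in the lung (adjusted p = 0.00852) and by 0.61 in the cerebellum (adjusted p = 0.00169). In the cerebellum 1 of its 2 probe sets was called.

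Inhibitors of apoptosis share a BIR domain, and some, such as Xiap, block caspases directly. Of 8 measured, 2 rose and 1 fell in the lung, with a median of 0.20, and limma called 0 in the cerebellum, where 0 had an unadjusted p under 0.05 and the median was -0.14. Birc3 (cIAP2) rose in the lung by 1.18 (adjusted p = 2.32e-05) and Naip2 by 1.10 (adjusted p = 0.000487). Of the 2 Birc3 probe sets 1 was called, with changes from 0.17 to 1.18. Birc5, or survivin, which also serves cell division, fell by 2.63 ± 0.22 (SE, adjusted p = 1.88e-07), or 6.20-fold, beside the proliferation markers given above. In the cerebellum the brightest, Xiap and Birc2, were at -0.02 (adjusted p = 0.964) and 0.18 (adjusted p = 0.399).

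Death receptors and their ligands feed Bid through caspase 8. Of 9 measured, 2 rose and 1 fell in the lung and 0 were called in the cerebellum by limma, where 3 had an unadjusted p under 0.05, with medians of -0.01 and -0.05. In the lung Tnfrsf21 rose by 0.89 (adjusted p = 0.000242) and Fas by 0.90 (adjusted p = 0.0348), and Tnfsf10, the ligand TRAIL, fell by 1.03 (adjusted p = 0.000431). The Fas change, from 1 probe set, was 0.45 (adjusted p = 0.0435) without dexamethasone array B46. Its call was lost without vehicle array B12 (adjusted p = 0.0689), B19 (0.0855) or B22 (0.0564), with only the lung arrays fitted (0.102) and with Xist in the model (0.0632). In the cerebellum the brightest were Tnfrsf1a, at -0.32 (adjusted p = 0.0553), and Tnfrsf21, at -0.11 (adjusted p = 0.839).

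Among 11 factors that act on BH3-only genes and p53 feedback genes, 4 rose and 2 fell in the lung, with a median of 0.23, and 1 rose and 1 fell in the cerebellum, with a median of 0.16. In the lung Cdkn1a, a p53 target and cell cycle inhibitor, rose by 1.39 (limma adjusted p = 0.000252). Trib3 rose by 0.79 (adjusted p = 0.000227) and Ddit3, the stress factor CHOP, by 0.57 (adjusted p = 0.00179). E2f1, a driver of cell division, fell by 1.13 (adjusted p = 5.65e-06). The Ddit3 change came from 1 of 2 probe sets, and 2 of 3 E2f1 probe sets were called, with changes from -1.13 to -0.06. In the cerebellum Bcl6 was higher by 0.69 (adjusted p = 0.0327), a call lost in 9 of 25 other settings, among them the omission of B39, B50, B52, B78, B79 or B80, with an adjusted p of up to 0.115. Of the 2 Bcl6 probe sets 1 was called there, with changes from 0.01 to 0.69.

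The 2 FOXO genes on this list, chosen after their values were seen because of the promoter motif shown for Bcl2l11 and Bbc3, encode the factors that bind such a motif. Foxo1 fell in the lung by 0.51 ± 0.13 (SE, limma adjusted p = 0.00511), with 3 of 4 probe sets called lower, and in the cerebellum it was at -0.36 (adjusted p = 0.122). Foxo3 was at 0.23 ± 0.15 in the lung (adjusted p = 0.258) and fell by 0.57 in the cerebellum (adjusted p = 0.0339), where 1 of 3 probe sets was called and the call was lost without B49, B50, B52, B79 or B80, with an adjusted p of up to 0.114, or with Xist in the model (0.0601). On the mean of its probe sets Foxo3 was at -0.22 in the cerebellum (adjusted p = 0.264) and was called higher in the lung, by 0.34 (adjusted p = 0.0122). On the brightest probe set the lung change of Foxo3 exceeded its cerebellum change by 0.81 (adjusted p = 0.0111). In the same lungs Bcl2l11 fell on its brightest probe set and Bbc3 rose. Whether FOXO factors had a part in these changes was not tested. With the Gapdh covariate the lung calls of Foxo1 (limma adjusted p = 0.177), Bcl2l11 and Bbc3 were lost.

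Among 10 mitochondrial partners of the family and genes of Mcl1 turnover, 0 rose and 3 fell in the lung, with a median of -0.17, and 1 rose in the cerebellum, with a median of 0.08. In the lung the outer membrane channels Vdac1 and Vdac3 fell by 0.41 (limma adjusted p = 0.00129) and 0.35 (adjusted p = 0.00292). Ywhaq, a 14-3-3 protein of the kind that holds phosphorylated Bad, was lower by 0.20 (adjusted p = 0.0495), a call lost in 20 of 25 other settings, among them the omission of any array but B39 or B79, with an adjusted p of up to 0.598. In the cerebellum Fbxw7, part of a ligase that marks Mcl1 for breakdown, rose by 0.44 (adjusted p = 0.00637).

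**Figure D4:**
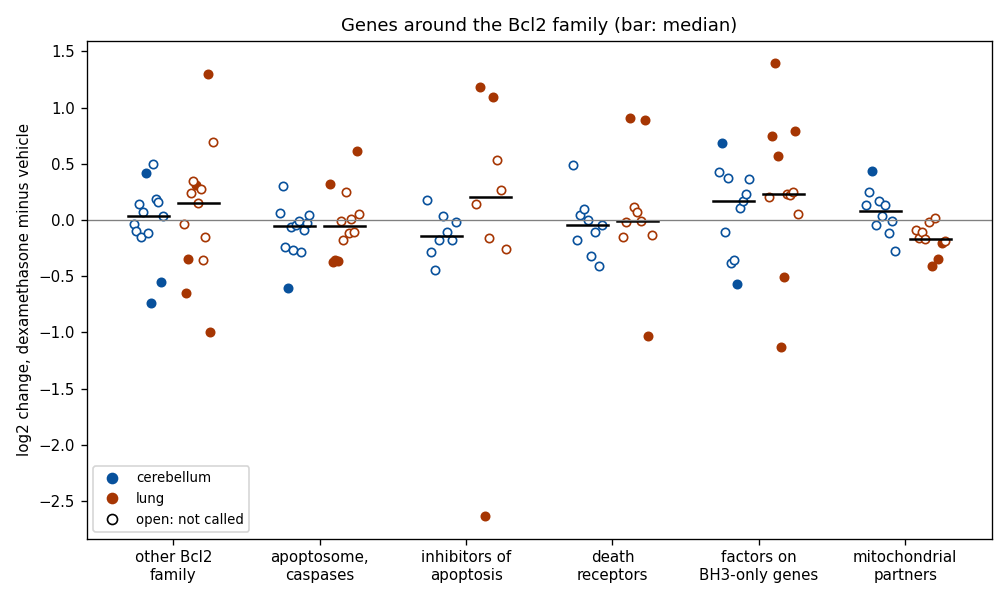
Log2 change with dexamethasone of every measured gene of the 6 lists in cerebellum and lung, filled where the adjusted p was under 0.05, with bars for list medians. Medians lie between -0.17 and 0.23, and the lowest point is Birc5 in lung at -2.63.

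Genes whose levels ran closest to each member over the 16 arrays were named by Pearson's r, as a description. The arrays share the organ and the treatment groups, so r reflects both. For Bcl2 the closest were Tmem47 (r = 0.949), Fat1 and Gcc2 (both 0.932). For Bcl2l1 they were Nectin4 (0.978), Pip5k1b (0.97) and Larp1b (0.964), and for Mcl1 Sdcbp (0.996), Plp2 and Hilpda (both 0.993). These were the closest genes of the guardians. Bak1 ran closest to Lman1 (0.968), Irak1 (0.967) and Zfp820 (0.963). Bid ran closest to Hsdl1 (0.984), Pkm (0.983) and Acss2 (0.975), and Bcl2l11 to Ttf1 (0.984), Garre1 (0.982) and Ackr3 (0.981). Bad had the weakest likeness, at 0.847 for Rad9b, 0.846 for Eepd1 and 0.82 for Ceacam2. Bbc3 ran closest to Tuft1 (0.96), Wt1 (0.959) and Timm10b (0.955), and Pmaip1 to Tef, Tnip1 and Timp1 (each 0.961).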

How the data were processed

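Affymetrix arrays of 16 samples gave the deposited log2 values, and per the submitters' processing notes the authors used RMA, with no version named. RMA gives every probe set a value, detected or not, and compresses differences between dim ones. Of 45101 probe sets 64 were controls. In the platform annotation 34945 probe sets had 1 symbol, 932 several and 9160 none. Only the first were used, giving 18193 genes, each read from its brightest probe set by mean over all 16 arrays. Of these genes 18032 took their RefSeq symbol, matched by gene identifier, and the rest kept the platform symbol. limma 3.58.1 (R 4.3.3) fitted a mean per group over the 16 arrays (12 residual degrees of freedom), with Benjamini-Hochberg adjustment over all genes and calls at an adjusted p under 0.05. All 45037 other probe sets were fitted likewise, adjusted over probe sets.

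All members were named, and of each list up to 4 called genes with the smallest adjusted p per organ, or the 2 brightest, and for each member the 3 genes of highest Pearson's r. The members and lists were chosen with earlier results of these data known. Alternatives changed the probe sets per gene, dim filter, normalization, arrays fitted, variance model, array weights, Xist and Gapdh covariates, and left out each array. Arrays give no read depth, and 4 per group limits the precision. Array medians ran from 5.87 to 6.00, and no 2 arrays held identical values.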

Additional observations from a re-analysis of the deposited data

Results flagged for a closer look

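Bak1 in cerebellum with vehicle read 6.60 on array B79, and the other 3 arrays of that group were at 6.13, so that 1 array stood far from the rest. Pmaip1 in the same group read 5.31 on array B81, with the others between 5.03 and 5.06. Of 36 groups of 4 arrays tested for such a gap, chance flags about 1 in 20.

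The test of the difference itself called a response that differed between the organs for 5 of the 9 members, beside 21.3% of all genes. Lung change minus cerebellum change was -0.66 for Bcl2, 0.74 for Bcl2l1, 0.61 for Mcl1, 0.89 for Bid and 0.52 for Bbc3 on the log2 scale. With the Gapdh covariate the calls of Bcl2 (limma adjusted p = 0.136) and Bbc3 (0.109) were lost. The Bbc3 call was lost in 18 of 24 other settings.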

How the results depend on the processing

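No paired analysis was possible because the groups share no replicate number. With the Gapdh 3′ minus 5′ signal as a covariate the members called numbered 1 in lung (6 without it), 3 for the difference between organs (5 without it) and 3 between organs with vehicle (7 without it). That signal did not overlap between the lung groups, and the cause was not tested. The share of all genes called with the covariate is not given. These counts therefore do not show a loss particular to the members. With the mean of the probe sets of a gene, the lung changes of Bcl2l11 and Bcl2l13 turned to 0.03 (limma adjusted p = 0.888) and 0.05 (adjusted p = 0.768), where probe sets of the gene pointed both ways. Leaving out each array in turn, the members called ran from 5 to 7 in lung and from 4 to 5 for the difference, and were 7 between organs in both treatments and 0 in cerebellum. Over 45 member comparisons and up to 25 other settings, 1076 of 1116 results kept their side of the threshold, and called ones also their direction. Of the rest 30 lost a call, 9 gained one and 1 lost its call with its sign turned. Results called in neither fit were counted as kept whatever their sign, and the sign of some of them changed, as for Bak1 in lung (-0.29 to 0.08). Among the genes of the lists named in the text the counts were 779 of 875, 86, 9 and 1. Bad was called higher in lung after another quantile normalization (0.25, adjusted p = 0.0478). Signal near background limits dim probe sets, and with 4 arrays per group a missed call does not show that levels were alike.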
